A study of Mus musculus and Homo sapiens with 14 samples.

Results

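Cecr2, St6gal2, Pkp1, Ecrg4, Slc30a4, Slc6a20a and D630045J12Rik are 7 mouse genes that were abundant in the P0 tumours of EL4 cells and nearly silent in the P3 tumours. They were chosen by the measured difference between P3 and P0, for large falls, out of 50559 entries in the EL4 table, and they were then followed in cultured EG7-OVA cells, whose table lists 55969 entries. All 7 are listed in both tables. Their P0 and P3 values are therefore a description with no test. Tests of the 7 genes concern only the cultured cells and the drugs, and tumour tests are given only for other genes.

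The study sequenced total RNA from mouse lymphoma cells and addressed inhibitors of DNA methyltransferases as a priming step for PD-1 immunotherapy. EL4 is a mouse T-cell lymphoma line, and EG7-OVA is a line derived from EL4 that makes chicken ovalbumin. Every EL4 and EG7-OVA library is labelled wild type. The 5 groups used here hold 2 libraries each: EL4 tumours P0, EL4 tumours P3, and EG7-OVA cells that received DMSO (the solvent), 1.5 µM of azacytidine or 0.2 µM of decitabine. The cultures were dosed at 0, 24 and 48 h and collected at 72 h. The labels do not say what the P numbers stand for, which animals carried the tumours, or whether the 2 libraries of a group came from separate animals or cultures. The p-values therefore measure only the spread between libraries, which may be technical. Tumours hold host cells as well as lymphoma cells, whereas the EG7-OVA cultures hold 1 line.

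Azacytidine and decitabine are cytidine analogues. Once built into DNA they trap DNA methyltransferases, so that daughter strands lose methyl groups at CpG, the base pair step where cytosine is methylated in mammals. Genes held silent by methylation of their promoters, with germline genes as the standard example, can be expressed again after such treatment. The products of the 7 genes work in different parts of the cell. Cecr2 encodes a bromodomain protein that pairs with ISWI motors to move nucleosomes. St6gal2 encodes a Golgi enzyme that caps sugar chains with sialic acid, and Pkp1 encodes plakophilin, a plaque protein of desmosomes best known from skin. Ecrg4 encodes a small secreted peptide precursor and is reported as silenced by promoter methylation in several carcinomas. Slc30a4 encodes a transporter that moves zinc out of the cytosol into vesicles, and Slc6a20a encodes a sodium-driven transporter of proline and related imino acids. D630045J12Rik is the mouse counterpart of human KIAA1549, a membrane protein gene known from its fusion with BRAF in childhood astrocytoma.

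On mm10 the 7 genes lie on 5 chromosomes, with no pair side by side. Cecr2 spans chr6:120666369-120771190 on the plus strand and D630045J12Rik spans chr6:38123174-38254009 on the minus strand. Pkp1 lies at chr1:135871395-135919207 on the minus strand, and Ecrg4, listed in GENCODE under the older symbol 1500015O10Rik, lies at chr1:43730602-43742578 on the plus strand. Slc30a4 spans chr2:122681233-122702663 on the minus strand, St6gal2 spans chr17:55445382-55514581 on the plus strand, and Slc6a20a spans chr9:123634770-123678885 on the minus strand. All 7 are protein-coding.

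Upstream sequence was available here for 5 of the 7 genes, from RefSeq on GRCm38.p6, as the 250 bases before the annotated start. Since both drugs act through CpG methylation, the windows of 3 genes are printed, chosen because they span the range of CpG content: Slc30a4 at chr2:122702664-122702913 on the minus strand, St6gal2 at chr17:55445132-55445381 on the plus strand, and Ecrg4 at chr1:43730352-43730601 on the plus strand. Each reads 5′ to 3′ along the gene, and the capitals mark every CpG.
Slc30a4: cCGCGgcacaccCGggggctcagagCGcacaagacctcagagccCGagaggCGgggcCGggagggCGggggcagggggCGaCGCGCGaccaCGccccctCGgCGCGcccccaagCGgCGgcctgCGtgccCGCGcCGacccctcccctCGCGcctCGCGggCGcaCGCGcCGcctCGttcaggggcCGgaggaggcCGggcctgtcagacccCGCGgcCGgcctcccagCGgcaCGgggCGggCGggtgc
St6gal2: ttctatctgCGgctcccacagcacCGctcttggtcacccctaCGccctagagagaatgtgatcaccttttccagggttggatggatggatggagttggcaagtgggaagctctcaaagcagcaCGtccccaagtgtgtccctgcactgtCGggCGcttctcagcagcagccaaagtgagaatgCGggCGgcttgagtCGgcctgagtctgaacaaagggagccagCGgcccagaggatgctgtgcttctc
Ecrg4: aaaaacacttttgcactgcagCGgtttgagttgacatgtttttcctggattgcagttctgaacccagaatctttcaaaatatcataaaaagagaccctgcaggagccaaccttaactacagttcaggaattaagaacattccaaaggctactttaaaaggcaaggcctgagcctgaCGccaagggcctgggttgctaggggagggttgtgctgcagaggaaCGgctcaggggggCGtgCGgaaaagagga
The Slc30a4 window held 40 CpG, the St6gal2 window 10 and the Ecrg4 window 5. The window of Slc6a20a held 21, and that of D630045J12Rik held 41, although the RefSeq start of the latter is not found in a GENCODE transcript. Over 32817 RefSeq windows of the same length the median was 6. As many CpG or more were present in 1.09% of all windows for D630045J12Rik, 1.31% for Slc30a4, 16.3% for Slc6a20a, 37.8% for St6gal2 and 55.6% for Ecrg4. The 5 windows thus ran from close to the median to the CpG-rich end. Methylation was not measured in these libraries.

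**Figure D1:**
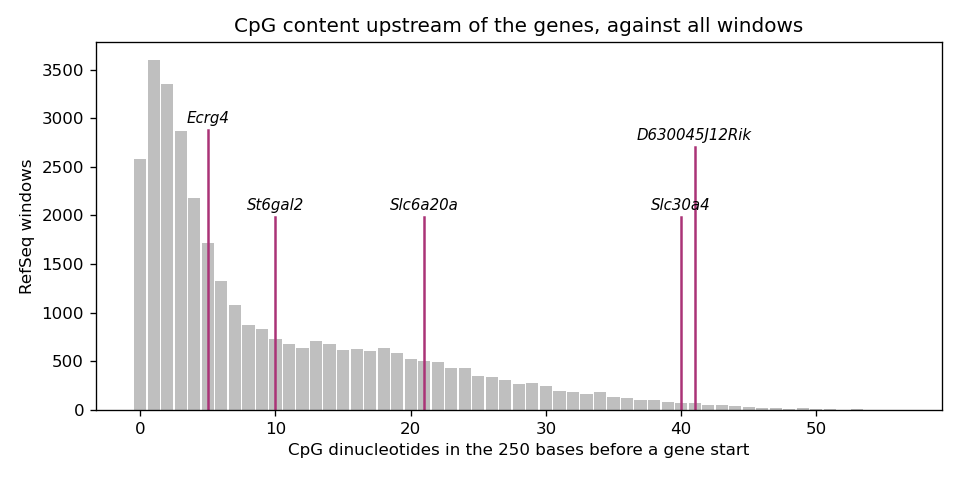
CpG dinucleotides (x axis) in the 250 bases before the start, as a histogram of RefSeq windows (y axis, number of windows), with lines at the values of the 5 genes that were matched. Ecrg4 (5) lies close to the median of 6, and Slc30a4 (40) and D630045J12Rik (41) lie in the far right tail.

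The EL4 tumour libraries held 21621580 to 25328708 counts and the EG7-OVA libraries 15690747 to 21048979. Levels are given as CPM, the usual unit in which the count of a gene is scaled to the total of its library. A floor of 3 counts corresponds to 0.118 to 0.191 CPM, and it covers counting error only. The summed level of 8 T-cell markers was 2078 to 2252 CPM in P0, 1938 to 2055 in P3 and 1194 to 1740 in EG7-OVA, with none of them at 0. Markers of other cell types differed between the tumours: 11 macrophage markers summed to 1294 and 1653 CPM in P0 and to 361 and 334 in P3, and 10 of the 11 were lower in P3. All 7 B-cell markers tested of 9 were lower in P3, from sums of 184 and 364 CPM to 29.7 and 28.4, with Ighm and Igkc listed at 0 in the 4 tumours. Dendritic-cell markers summed to 130 and 153 CPM against 37.4 and 38.9, and 6 of 8 were lower. Fibroblast markers summed to 2840 and 2988 CPM against 1775 and 1048, but only 3 of 8 were lower, 1 was higher and 4 did not pass. Adipocyte markers summed to 293 and 196 CPM against 167 and 39.0, and 1 of 5 was lower while 4 did not pass. Neutrophil markers summed to 2.96 and 3.16 CPM in P0 and to 13.9 and 52.4 in P3, and 3 of the 4 tested were higher in P3. Endothelial markers summed to 216 and 225 CPM against 246 and 157, and 0 of 7 passed. The 8 epithelial markers summed to 15.7 and 10.5 CPM against 9.90 and 1.92, and 1 of the 4 tested was lower. Markers near 0 in a tumour group, as the B-cell marker Blk was in P3, had enough reads to be tested only through the other group. Their calls were thus largely fixed in advance. Some of these lists do not mark host cells alone, because the EG7-OVA cultures carried them too. There B-cell markers summed to 333 to 464 CPM, of which Ighm made 329 to 434. Blk, another B-cell marker, had 1.95 and 20.1 CPM with DMSO. Endothelial markers summed to 55.7 to 85.9 CPM in EG7-OVA, fibroblast markers to 89.0 to 191 and macrophage markers to 6.89 to 41.9. In bulk tumour RNA, fewer cells of a type and less RNA per cell cannot be told apart. The part of the tumour shifts in the falls described next was not tested.

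The second DMSO library of EG7-OVA stood apart from the first. Of 19123 genes tested in EG7-OVA, 341 were higher in the second library by 2 or more on the scale of log2(CPM + 0.5), and 0 were higher in the first by as much. Cecr2 and St6gal2 are among the 341, so results on them are given below with each DMSO library left out.

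Ecrg4 reached 175 and 202 CPM in the 2 P0 tumours and 0.601 and 0.262 CPM in the P3 tumours. Pkp1 had 1123 and 1457 reads in P0, or 51.2 and 57.5 CPM, and 3 reads in each P3 library. These were the deepest falls of the 7: Ecrg4 fell by 8.83 and Pkp1 fell by 8.66 on the log2 scale.

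D630045J12Rik stood at 121 and 117 CPM in P0 and at 0.879 and 1.31 CPM in P3. Cecr2 stood at 129 and 136 CPM in P0 and at 2.54 and 2.14 CPM in P3. Slc6a20a stood at 53.6 and 52.1 CPM in P0 and at 1.30 and 1.00 CPM in P3. The P0 level was thus about 109 times the P3 level for D630045J12Rik, 56.5 times for Cecr2 and 46.0 times for Slc6a20a. The 2 libraries of each tumour group differed by a factor of at most 1.49 for these 3 genes.

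St6gal2 and Slc30a4 kept the most in P3. St6gal2 went from 179 and 202 CPM to 4.67 and 4.45. Slc30a4 fell least, from 105 and 124 CPM to 5.23 and 5.11, a ratio of 22.1. For each of the 7 genes both P3 libraries lay below both P0 libraries. Over all 19993 genes tested the 2 tumour groups did not overlap for 75.7%, with P3 lower for 35.2%. By edgeR's quasi-likelihood test, 38.7% were called at a Benjamini-Hochberg adjusted p of 0.05 and 50.8% had an unadjusted p under 0.05. Ranked by fold change, the 7 falls stood at places 16 (Ecrg4), 20 (Pkp1), 89 (D630045J12Rik), 123 (Cecr2), 137 (Slc6a20a), 149 (St6gal2) and 228 (Slc30a4).

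Per kilobase of merged exon (RPKM), P0 levels followed another order, since exon length ran from 0.902 kb for Ecrg4 to 17.1 kb for Cecr2. Ecrg4 was first by far, at 209 ± 21.4 RPKM (SD, n = 2). St6gal2 followed at 25.8 ± 2.27 and Slc30a4 at 20.9 ± 2.39. Slc6a20a stood at 12.9 ± 0.263, Pkp1 at 10.8 ± 0.888, D630045J12Rik at 8.84 ± 0.212 and Cecr2 at 7.75 ± 0.271 RPKM. Each neighbouring pair in this order was separated by more than either SD. In P3 all 7 genes were below 1 RPKM, with Slc30a4 highest at 0.943 ± 0.0151 and Pkp1 lowest at 0.0268 ± 0.00109.

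**Figure D2:**
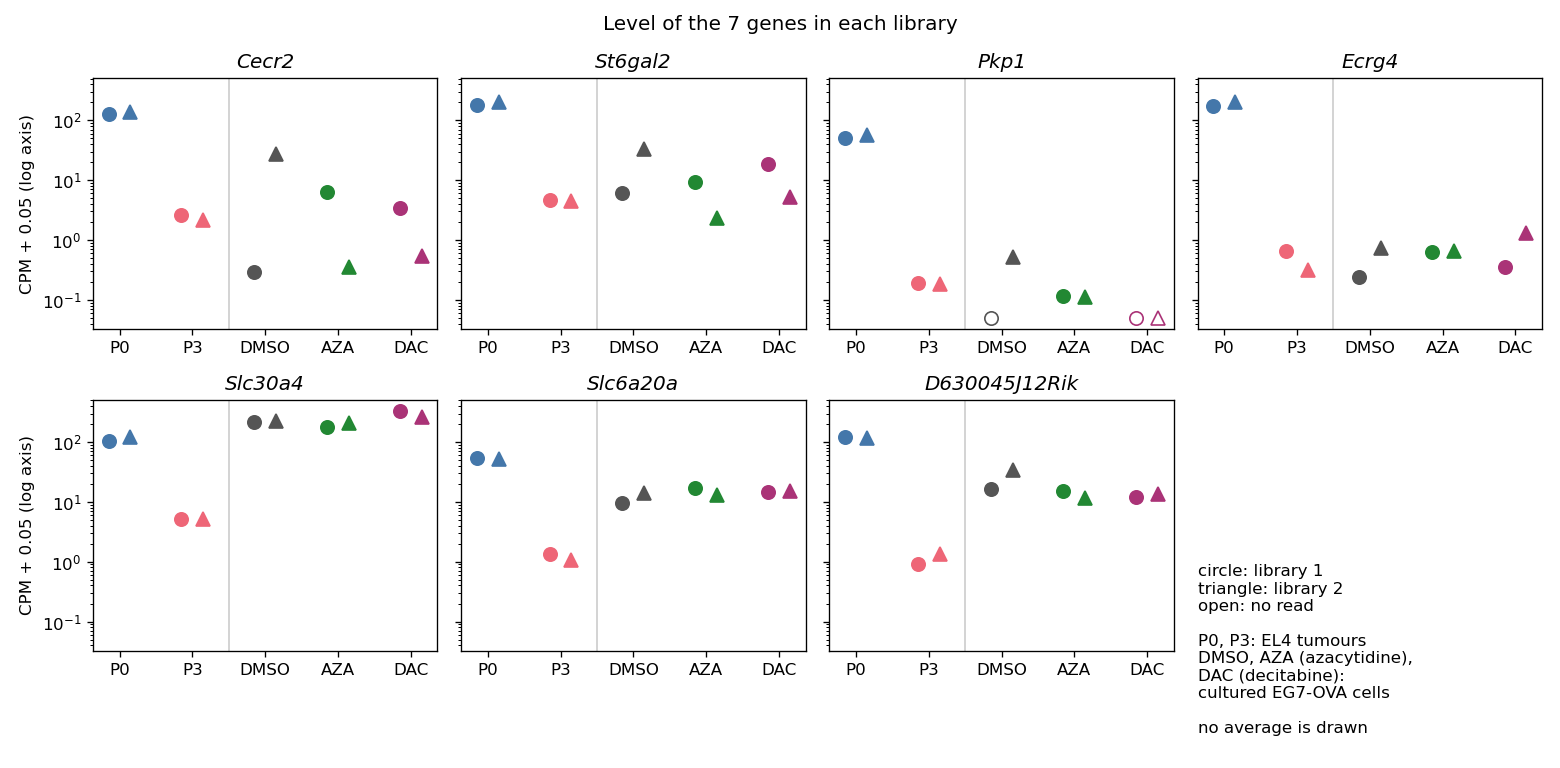
Level of each gene in CPM + 0.05 (log y axis) in the 2 libraries (circle and triangle) of each group (x axis), with open symbols where no read was counted and a vertical line between the tumour and EG7-OVA tables. Every gene is high in P0 and low in P3, Slc30a4 alone reaches its P0 level in all 6 EG7-OVA libraries, and Cecr2 and St6gal2 differ widely between the libraries of each EG7-OVA group.

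Cultured EG7-OVA cells expressed some of the 7 genes and not others. Slc30a4 was as abundant in culture as anywhere in the data, while Ecrg4 and Pkp1 were close to the floor. Slc6a20a and D630045J12Rik lay in between, and Cecr2 and St6gal2 depended on the library. The values come from 2 tables counted apart and from different lines, so these levels were not tested against the tumours.

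Slc30a4, the zinc transporter, gave 220 and 224 CPM with DMSO, and the DMSO mean was 194% of the P0 mean and 43.0 times the P3 mean. In CPM its order of levels was decitabine (325 and 259), DMSO (220 and 224), azacytidine (181 and 208), P0 (105 and 124) and P3 (5.23 and 5.11). No neighbouring groups in that order overlapped. Its nearest relative in level across the 10 libraries was Add2, which encodes an adducin of the membrane skeleton, at a root mean square distance of 0.257 between centred log2(CPM + 1) profiles. Add2 had 19.9 and 21.4 CPM in P0, 0.278 and 0.0437 in P3, and 38.8 to 65.2 in EG7-OVA.

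Slc6a20a, the imino acid transporter, gave 9.55 and 13.9 CPM with DMSO. D630045J12Rik gave 16.2 and 34.5 CPM. The DMSO means came to 22.1% and 21.3% of the P0 means, and both DMSO libraries lay between the P0 and the P3 libraries for each gene. Per length, the DMSO level was 2.87 ± 0.747 RPKM for Slc6a20a and 1.89 ± 0.958 RPKM for D630045J12Rik (SD, n = 2).

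Slc6a20a shares exonic sequence with a neighbour on the other strand, Ccr9, a chemokine receptor gene of thymocytes and gut-homing T cells. Whether the counting used strand is not given in the sources used here, so reads from the shared exons cannot be told apart. Ccr9 had 9164 and 10669 reads in P0 and 10299 and 8122 in P3, while Slc6a20a went from 1176 and 1320 reads to 28 and 23. A near copy, Slc6a20b, shares 91.4% of 1719 aligned transcript bases with Slc6a20a, and its longest identical run is 321 bases, so their counts are uncertain against each other. Slc6a20b was low in every library, at 0.547 to 2.17 CPM in the tumours and 3.80 to 8.72 CPM in EG7-OVA.

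Cecr2, the nucleosome remodelling subunit, had 5 reads in the first DMSO library and 518 in the second, or 0.238 and 27.1 CPM. St6gal2, the sialyltransferase, had 6.18 and 32.8 CPM in the same order. The gap for Cecr2, 5.23 on the scale of log2(CPM + 0.5), was exceeded by only 19 of 19123 genes. That for St6gal2, 2.32, was exceeded by 267.

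The same 2 genes split the other EG7-OVA groups too, there with the first library higher. With azacytidine Cecr2 had 6.31 and 0.303 CPM, and St6gal2 had 9.43 and 2.30. With decitabine Cecr2 had 3.35 and 0.491 CPM, and St6gal2 had 18.5 and 5.18. Both genes were thus higher in the same library of each pair, and the gap for Cecr2 with azacytidine was exceeded by 3 genes. In the tumours, by contrast, their 2 libraries differed by a factor of at most 1.19.

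The gene whose profile over the 10 libraries came nearest to Cecr2 was Igll1, a surrogate light chain gene of early B cells, at a distance of 0.612. It had 35.0 and 41.4 CPM in P0, 0 in both P3 libraries, 0.0475 and 14.4 with DMSO and 1.66 and 0.0606 with azacytidine. St6gal2 itself was second nearest to Cecr2, at 0.783, among 11135 candidates before predicted models and clones were left out. The P0 and P3 values that chose both genes enter the distance, so part of this closeness was fixed in advance. For St6gal2 the nearest was Tdrd5, a tudor domain gene of germ cells, at 0.504.

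Ecrg4 was low in every EG7-OVA library. It had 4 and 13 reads with DMSO, 9 and 10 under azacytidine and 6 and 23 under decitabine, or 0.190 to 1.25 CPM. The DMSO mean was 0.231% of the P0 mean and lay at the P3 level, with overlapping libraries.

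Pkp1 had 0 and 9 reads with DMSO, 1 and 1 with azacytidine, and 0 in both decitabine libraries. The nearest profile to Ecrg4 among the candidates was that of Pkp1, at 0.586. Both were chosen for large falls in P3, and the tumour values enter the distance, so part of this closeness was fixed in advance. For Pkp1 the nearest was Gimap3, a GTPase gene of lymphocytes, at 0.268, with 35.4 and 44.9 CPM in P0 and at most 0.370 CPM elsewhere. The 8 epithelial markers summed to 15.7 and 10.5 CPM in P0. The highest was Krt18 in the first P0 library, at 4.79 CPM, and Cdh1 in the second, at 4.07 CPM. Krt5 and Krt14 reached at most 0.593 and 0.456 CPM in the tumours. Whether Pkp1 reads came from epithelial cells was not tested.

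Of the 7 genes, 6 had enough reads to be tested for a change with each drug, and Pkp1 did not. With azacytidine, 0 of the 6 passed an adjusted p of 0.05 (edgeR's quasi-likelihood test, Benjamini-Hochberg), against 20.3% of all genes tested, of which 13.6% higher and 6.7% lower. With decitabine 0 of 6 passed as well, against 16.7% of all genes, 12.4% higher and 4.3% lower. At an unadjusted p under 0.05 the counts were 1 (D630045J12Rik, lower) and 2 (D630045J12Rik, lower, and Slc30a4, higher), against 33.2% and 29.8% of all genes. DESeq2 called 1 of the 6, D630045J12Rik, lower with each drug. The doses of the 2 drugs differ, so values for them are given side by side.

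Slc30a4 was lower in both azacytidine libraries (181 and 208 CPM) than in the DMSO libraries (220 and 224 CPM). In both decitabine libraries (325 and 259 CPM) it was higher. The log2 fold changes were -0.19 ± 0.17 (SE, adjusted p = 0.474) and 0.38 ± 0.17 (adjusted p = 0.166). Their 95% intervals allow at most a rise of 1.14-fold with azacytidine and 1.70-fold with decitabine. Azacytidine against decitabine at these unequal doses gave -0.58 ± 0.17, with an unadjusted p of 0.00721 and an adjusted p of 0.429. No gene at all passed the adjusted threshold in that comparison (0% called, 6.37% at an unadjusted p under 0.05, and 172 genes by DESeq2). Groups did not overlap there for 35.3% of all genes (17.3% higher and 18% lower with azacytidine), and of the 6 genes only for Slc30a4, lower with azacytidine.

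Slc6a20a had 16.8 and 12.9 CPM under azacytidine and 14.3 and 15.3 CPM under decitabine, against 9.55 and 13.9 with DMSO. The decitabine libraries lay above both DMSO libraries and the azacytidine libraries overlapped with them. The fold changes were 0.36 ± 0.27 (adjusted p = 0.389) and 0.34 ± 0.27 (adjusted p = 0.448), with upper limits of 1.94-fold and 1.91-fold. Ccr9, whose reads overlap, had 7139 and 6692 reads with DMSO, 1453 and 1971 under azacytidine and 3615 and 4157 under decitabine. It fell by 1.70 (adjusted p = 0.0002) and 0.75 (adjusted p = 0.0184) on the log2 scale. The share of Slc6a20a reads that come from the overlapping exons was not tested.

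D630045J12Rik was the one gene that came close to a call. It had 15.3 and 11.5 CPM under azacytidine. Under decitabine it had 233 and 243 reads, a mean of 12.6 ± 0.882 CPM (SD, n = 2). All 4 drug-treated libraries lay below both DMSO libraries (16.2 and 34.5 CPM). The log2 fold changes were -0.89 ± 0.32 (adjusted p = 0.0787) and -0.99 ± 0.32 (adjusted p = 0.0615), and the 95% intervals, which end at 0.886-fold and 0.825-fold, hold no rise. Without the first DMSO library it passed with both drugs (adjusted p = 0.0127 and 0.0102), and without the second its fold changes were -0.40 and -0.50 (adjusted p = 0.443 and 0.336). Groups without overlap were common among all genes: 61.1% with azacytidine (33.3% higher, 27.8% lower) and 58.9% with decitabine (33.1% higher, 25.8% lower). Among the 6 tested, Slc30a4 and D630045J12Rik were lower without overlap with azacytidine. With decitabine, Slc30a4 and Slc6a20a were higher and D630045J12Rik was lower without overlap.

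For Cecr2 and St6gal2 the fold changes depended on single libraries. Over all libraries Cecr2 gave -1.95 ± 1.51 with azacytidine (adjusted p = 0.407) and -2.76 ± 1.56 with decitabine (adjusted p = 0.274). St6gal2 gave -1.67 ± 0.82 (adjusted p = 0.186) and -0.68 ± 0.79 (adjusted p = 0.625).

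Without the first DMSO library Cecr2 gave -2.97 (adjusted p = 0.0642) and -3.75 (adjusted p = 0.0313), and St6gal2 gave -2.42 (adjusted p = 0.0319) and -1.41 (adjusted p = 0.229). Without the second, Cecr2 turned to 3.66 (adjusted p = 0.108) and 2.86 (adjusted p = 0.225), and St6gal2 gave -0.18 (adjusted p = 0.897) and 0.81 (adjusted p = 0.504). Drug libraries moved the values too. Cecr2 with azacytidine gave -5.43 without the first azacytidine library and -1.03 without the second, and with decitabine -4.74 and -1.98 without the first and the second decitabine library. St6gal2 gave -3.08 and -0.99 with azacytidine and -1.90 and -0.05 with decitabine, in the same order. None of these values passed the threshold (adjusted p from 0.114 to 0.984). The upper limits over all libraries were 2.65-fold and 1.64-fold for Cecr2 and 1.11-fold and 2.11-fold for St6gal2.

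Ecrg4 gave 0.47 ± 0.83 (adjusted p = 0.740) and 0.86 ± 0.80 (adjusted p = 0.528). With azacytidine it gave -0.15 without the first DMSO library and 1.48 without the second. With decitabine it gave 0.24 and 1.86 without those, 1.51 without the first decitabine library and -0.48 without the second, so its direction rested on single libraries. The upper limits over all libraries, 4.96-fold and 6.22-fold, are the highest of the 6. Even so, the highest drug-treated library, at 1.25 CPM, stayed far below the 175 CPM of the lower P0 library. For Pkp1 the 9 DMSO reads against 2 azacytidine reads made a ratio of 3.61 with a counting interval of 0.747 to 34.3. All 9 DMSO reads came from the second library, and the first had 0, as both decitabine libraries did. The median log2 fold change of the 6 tested genes was -0.54 with azacytidine and -0.17 with decitabine, beside 0.03 and 0.04 over all genes tested. Without the second DMSO library the medians of the 6 turned to 0.17 and 0.66.

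**Figure D3:**
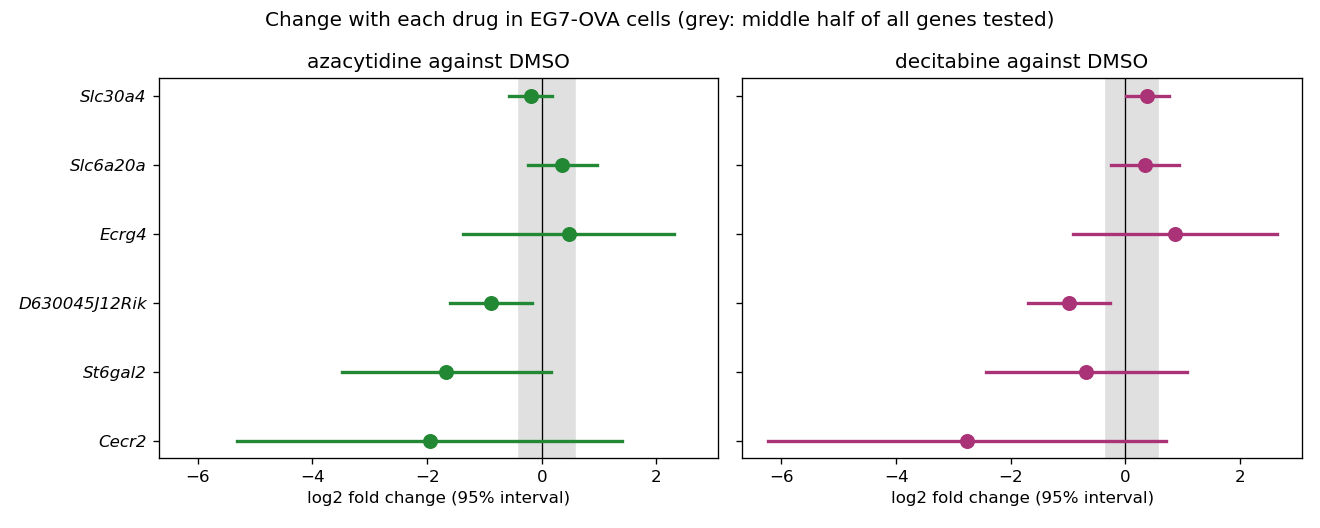
Log2 fold change with azacytidine (left) and decitabine (right) against DMSO (x axis) for the 6 genes tested, as points with 95% intervals, over a grey band that holds the middle 50% of all genes tested. The intervals of Cecr2 and St6gal2 are several times wider than those of Slc30a4 and Slc6a20a, and only those of D630045J12Rik (both drugs) and Slc30a4 (decitabine) leave out 0.

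Germline genes controlled by methylation rose in the same cultures. Of 16 such genes listed, 12 had enough reads to be tested, of which all 12 rose with azacytidine and 9 rose with decitabine. These counts were largely fixed in advance. A gene near 0 with DMSO, as Dazl was, could pass the read filter only through the drug-treated libraries. The counts are therefore no rate of response to set beside the 6 genes tested above. Dazl, an RNA-binding protein of germ cells, had 0.190 and 0.0523 CPM with DMSO, 40.5 and 43.1 under azacytidine and 13.0 and 18.0 under decitabine. Its log2 fold changes were 8.31 ± 0.44 (adjusted p = 4.4e-06) and 6.87 ± 0.44 (adjusted p = 1.89e-05).

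Counts of relatives of the 7 genes are to be read beside the shares over all genes: 18.8% higher and 19.9% lower in P3, 13.6% and 6.7% with azacytidine, and 12.4% and 4.3% with decitabine. A relative near 0 in the group with the lower level could pass the read filter only through another group. The calls of such genes were largely fixed in advance. Of 12 tested partners and relatives of Cecr2 in ISWI remodelling, 2 fell with each drug and 0 rose, and these were Rbbp7 and Rbbp4, histone-binding chaperones, with log2 fold changes of -0.85 and -0.54 with azacytidine and -0.66 and -0.62 with decitabine. In P3, 4 of 13 were higher and 3 lower. Beside St6gal2, of 11 sialyltransferases tested, 1 rose and 2 fell with azacytidine, and 3 rose and 1 fell with decitabine. St3gal2 rose with both, from 91.6 and 95.3 CPM to 294 and 240 and to 233 and 312 (log2 fold changes of 1.52 and 1.53). St6gal1, the closest paralogue of St6gal2, was higher in P3, at 364 and 315 CPM against 222 and 221, where St6gal2 was low. Of 15 sialyltransferases tested in the tumours, 5 were higher and 5 lower in P3.

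Of 14 desmosome genes tested in the tumours, 5 were lower in P3, 1 was higher and 8 did not pass. Dsc2, a desmosomal cadherin, had 2.60 and 3.28 CPM in P0 and 0.0463 and 0.0437 in P3. It could pass the read filter only through P0, so its fall was largely fixed in advance. Of 8 tested in EG7-OVA, 2 rose and 2 fell with azacytidine and 1 rose and 1 fell with decitabine. Pkp3, a plakophilin like Pkp1, had 0.855 and 1.67 CPM with DMSO, 12.4 and 14.1 under azacytidine and 9.12 and 14.0 under decitabine. It rose by log2 fold changes of 3.41 ± 0.39 (adjusted p = 0.000347) and 3.20 ± 0.39 (adjusted p = 0.000562), whereas Pkp1 itself stayed at 0 or 1 read with either drug.

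Of 20 other zinc transporters tested, 8 rose and 0 fell with azacytidine, and 3 rose and 0 fell with decitabine. Slc30a1, the exporter at the cell surface, had 12.3 and 11.0 CPM with DMSO, 22.8 and 26.1 under azacytidine and 21.4 and 24.7 under decitabine. In P3 it stood at 7.12 and 9.35 CPM against 20.9 and 21.4 in P0, while of 20 zinc transporters tested in the tumours 7 were higher, 3 lower and 10 did not pass. Of 9 other SLC6 transporters tested, 2 rose and 2 fell with azacytidine and 2 rose and 1 fell with decitabine. Slc6a18, an amino acid transporter gene, had 6.80 and 7.78 CPM in P0 and 0 and 0.0437 in P3, and 3 of 9 SLC6 genes were lower in P3 with 1 higher. The read filter could keep Slc6a18 only through P0, so its fall was largely fixed in advance. Kiaa1549l, the one relative of D630045J12Rik, had too few reads to be tested.

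The neighbours of the 7 genes were examined as the 5 annotated genes on each side, 70 in all. Of 28 with enough reads in the tumours, 11 were lower in P3 and 0 higher, beside 19.9% lower and 18.8% higher over all genes. The 11 fell into a few places: 4 of 4 around Cecr2, 4 of 6 around Pkp1, 2 of 5 around Slc30a4 and 1 of 5 around Slc6a20a, with 0 of 8 around the other 3 genes. Near Pkp1 but not adjacent to it, Tnnt2, which encodes a cardiac troponin, had 11.1 and 8.29 CPM in P0 and 0.879 and 0.742 in P3. That was a fall by 3.64 on the log2 scale. Lad1, an anchoring filament protein gene, had 3.10 and 2.37 CPM against 0.416 and 0.393. Lad1 could pass the read filter only through P0, so its fall was largely fixed in advance. Around Cecr2 the falls were smaller, between 0.45 (Bcl2l13) and 1.44 (Slc25a18) on the log2 scale. Gatm, a creatine synthesis gene near Slc30a4 but not adjacent to it, had 3.56 and 6.99 CPM in P0 and 0.601 and 0.480 in P3. No neighbour fell as far as the gene it flanks, which was largely fixed in advance because the 7 genes were chosen for large falls.

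With the drugs, 3 of 34 tested neighbours rose and 6 fell with azacytidine, and 4 rose and 2 fell with decitabine, beside the shares over all genes given above (13.6% and 6.7%, 12.4% and 4.3%). The share of neighbours that rose was thus near the background. The share that fell with azacytidine was above it, with 3 of 7 around Ecrg4 and 3 of 8 around Slc6a20a. Those entries are not independent, since Gm37536 and Gm38228 lie within Nck2 and Gm17200 overlaps Ccr9. Igfn1, a muscle protein gene near Pkp1, rose by log2 fold changes of 2.71 and 2.60 (adjusted p = 0.0034 and 0.0050). It went from 2.90 and 7.01 CPM with DMSO to 22.4 and 41.7 under azacytidine and 18.4 and 40.7 under decitabine. Svopl, near D630045J12Rik but not adjacent to it, rose by 3.21 and 3.34 (adjusted p = 0.0385 and 0.0354), from 0.143 and 0 CPM to at most 0.981. With 3 and 0 reads with DMSO, Svopl could pass the read filter only through the drug-treated libraries. Its rise, which is part of the counts above, was thus largely fixed in advance.

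Apart from the 7, another 7 genes fell at least as far as Slc30a4 from a P0 level at or above that of Slc6a20a: Hapln1, Brinp2, Gvin3, Satb1, Vcan, Amot and Ripor2. All 7 are listed in the EG7-OVA table, and 4 of them had a DMSO mean of 1 CPM or more, as did 5 of the 7 genes described here. Hapln1, a link protein of the matrix, had 12.3 and 59.6 CPM in the 2 DMSO libraries, and Satb1, a chromatin organiser of T cells, had 0 and 84.3. Both were thus higher in the second DMSO library, as Cecr2 and St6gal2 were.

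Vcan, which encodes the matrix proteoglycan versican, was the only 1 of the 4 tested that rose with a drug. It had 320 and 350 CPM in P0, 16.5 and 8.78 in P3, and 13.9 and 11.5 with DMSO. With azacytidine it had 419 and 372 CPM and with decitabine 736 and 508. Its log2 fold changes were 4.96 (adjusted p = 4.4e-06) and 5.59 (adjusted p = 3.46e-06). None of the 6 genes tested from the group described here did likewise, though the difference between Vcan and those genes was not tested.

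**Figure D4:**
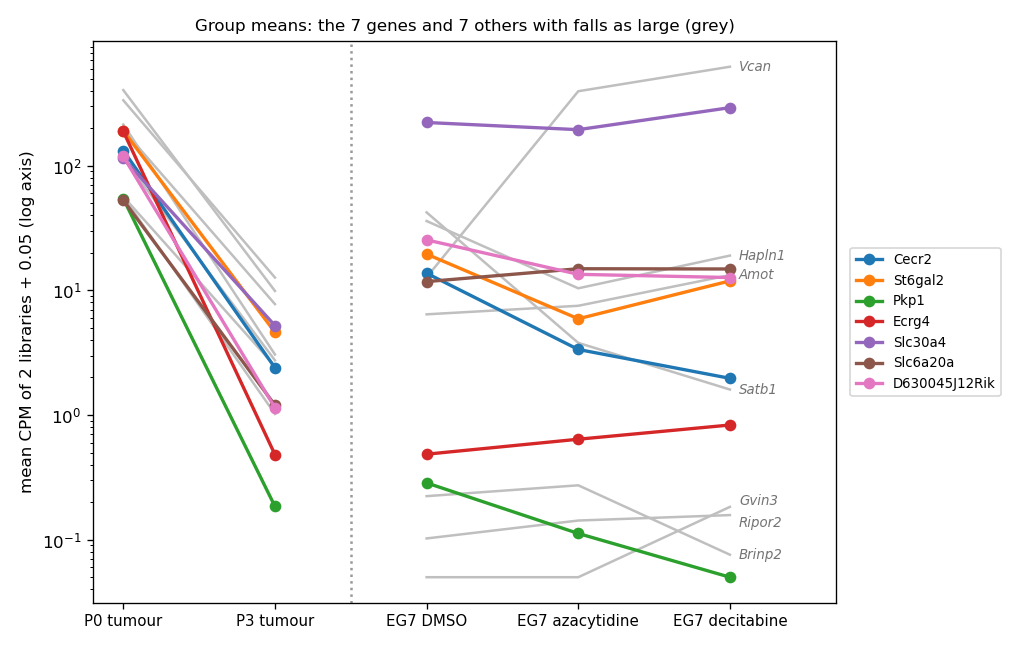
Mean CPM of 2 libraries + 0.05 (log y axis) in each group (x axis) for the 7 genes (colours) and the other 7 genes with falls as large (grey), with lines broken between the tumour and EG7-OVA tables. Vcan climbs with both drugs to above its P0 level, and no coloured line climbs in that way.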

How the data were processed

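Total RNA libraries of 4 EL4 tumours and 6 EG7-OVA cultures were used, of 14 in the series. NKYS libraries were not used. The deposited EL4 table holds raw counts per gene symbol. The EG7-OVA table was handled as estimated counts, as deposited by the authors, because 145 values in 62 entries were not whole, none of them in the 7 genes. These were rounded. Per the submitters' processing notes, the authors used fastp, Trim Galore, STAR and featureCounts, with mm10 and GRCh38 named. Neither tool versions nor strand settings are given in the sources used here. The planned test assumed counts, and it was kept.

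Genes were kept by filterByExpr, scaled by TMM and compared by glmQLFit and glmQLFTest in edgeR 4.0.16 (R 4.3.3), two-sided, with Benjamini-Hochberg adjustment over all genes of a comparison and a threshold of 0.05. The 6 EG7-OVA libraries shared 1 fit. DESeq2 1.42.0 was an alternative. The scripts were tested on simulated data. Positions and exon lengths came from GENCODE vM21, upstream windows from RefSeq. The 7 genes, the lists of relatives and markers and the rules were chosen with earlier results of these data known. Genes named are the 7, up to 4 relatives per list with the smallest p, the nearest profiles (root mean square distance of centred log2(CPM + 1), among genes with a P0 mean of 5 CPM or more), called neighbours, Dazl for the germline list, and the genes with falls as large. Predicted models and clones, apart from the 7 genes, were left out of the nearest profiles. Ccr9, Slc6a20b, Krt5, Krt14, Krt18, Cdh1 and Kiaa1549l were named after their values were seen.
The titles number the DMSO libraries 2 and 3, while the library names number them 1 and 2, and the library names were followed.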

Additional observations from a re-analysis of the deposited data

How the results depend on the processing

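No member of the group was called higher with a drug under any of the 13 alternatives run per comparison. Calls that appeared were all lower: with azacytidine 1 gene by DESeq2, 3 with no filter, 2 with the replicate block when the DMSO numbers were crossed, and 0 to 2 on leaving out 1 library. With decitabine they were 1, 2, 2 and 0 to 2. The adjusted p of D630045J12Rik ran from 0.0127 to 0.443 with azacytidine and from 0.00748 to 0.336 with decitabine. Over all genes, leaving out 1 library moved the count called from 3883 to between 1675 and 3897 with azacytidine (lowest without the first azacytidine library, 2226 without the second) and from 3198 to between 1520 and 3290 with decitabine (lowest without the second decitabine library, 2054 without the first DMSO library). Azacytidine against decitabine went from 0 genes to 172 by DESeq2, 378 with no filter, 167 with the crossed block and 0 to 88 on leaving out 1 library (88 without the second DMSO library). In the tumours, 7736 genes were called and 0 to 11286 on leaving out 1 library, with 0 without either P0 library. The lone library of a group is then assumed to vary like the others, and the cause of these shifts was not tested.

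Same-numbered libraries deviated together between the 2 drugs (r = 0.273) but not between P0 and P3 (r = -0.0374), DMSO and azacytidine (r = -0.257) or DMSO and decitabine (r = -0.191), so the numbers were not taken to pair the samples. With the replicate block 5490, 3609, 2954 and 0 genes were called in the 4 comparisons, and 0 of the 6 genes tested with either drug. The negative values mean that same-numbered DMSO and drug libraries deviated in opposite directions. The titles number the DMSO libraries otherwise than the library names, so their pairing with the drug libraries is uncertain. The crossed block was chosen after seeing the data and called 4576 and 3922 genes with the drugs. Under it St6gal2 and D630045J12Rik were called lower with azacytidine, and Cecr2 and D630045J12Rik with decitabine. Depth limits Pkp1 and Ecrg4, which had at most 23 reads in any EG7-OVA library, and groups of 2 libraries limit all tests.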

Other observations

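The genes that differed between the 2 DMSO libraries were also set beside their values in the tumours, in a comparison chosen after seeing the data and given without a test. Of the 341 genes higher by 2 or more in the second DMSO library, 317 had enough reads in the tumours. Of these, 133 (42.0%) were lower in P3 and 54 (17.0%) higher, against 20.6% lower and 17.1% higher among the 13849 other genes tested in both tables. The first library of both drug groups was the higher one for 208 of the 341 (61.0%) and for 20.9% of the others. Satb1, Igll1, Hapln1, Cecr2 and St6gal2 are among the genes with this pattern in the DMSO libraries.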
